A study of Mus musculus with 6 samples.

Results

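The genes described here encode the machinery that releases neurotransmitter from synaptic vesicles and recovers the vesicle membrane afterwards. They were taken from a list of 43 genes that leaves out the complexins and the Rab GTPases. Each gene was read from its brightest probe set (the set of short probes that measures a transcript on the array) among those annotated to that gene alone. Of the 43 genes, 42 had such a probe set, out of 18193 genes with one, and Slc17a8 had none. The level of 40 members reached 50 in the mean of at least 1 group, as did that of 12213 genes in all. These 40 members reached it in both groups, and the brightest probe sets of Syt6 and Sv2c stayed below it in both.

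RNA bound to ribosomes was purified from cortex of mice whose S100a10-expressing cells carry tagged ribosomes (the bacTRAP line ES691, driven by S100a10), and all mice were also constitutive knockouts of p11, the product of S100a10. FLX mice drank fluoxetine, a selective serotonin reuptake inhibitor, at 0.167 mg per ml in 1% saccharine for 15 to 18 days, and VEH mice drank 1% saccharine alone. Both groups had been backcrossed from FVB to C57BL/6 for 3 to 5 generations, and no age is given in the labels. There were 3 arrays per group, called biological replicates and numbered 1 to 3 in both groups, and the labels do not say how many animals went into an array. The driver also labels some non-neuronal cells, per the series description.

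Release begins when synapsins hold vesicles in a reserve near the terminal membrane. Active zone scaffolds and priming factors then bring a vesicle to its release site, where SNARE proteins of vesicle and plasma membrane zip together and calcium binding to synaptotagmin triggers fusion. An ATPase takes the spent SNARE complex apart, and clathrin, dynamin and their partners retrieve the membrane, which transporters refill with glutamate. Cortical projection neurons use these proteins at their axon terminals, while the mRNA measured here is that on ribosomes of the tagged cells.

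The regions before the gene starts of 3 members are shown because these genes took opposite sides between replicate numbers, as described further on: Syn1 was higher, and Syp and Sv2a were lower, in replicate 3 of both groups. Each is 250 bases, 5′ to 3′ on the gene's strand, from RefSeq on build GRCm38.p6, which had promoters for 32 of the 43 members. Syn1 is chrX:20920919-20921168 (minus strand), Syp is chrX:7638330-7638579 (plus strand) and Sv2a is chr3:96180977-96181226 (plus strand). Capitals mark 4 motifs searched on both strands.
Syn1: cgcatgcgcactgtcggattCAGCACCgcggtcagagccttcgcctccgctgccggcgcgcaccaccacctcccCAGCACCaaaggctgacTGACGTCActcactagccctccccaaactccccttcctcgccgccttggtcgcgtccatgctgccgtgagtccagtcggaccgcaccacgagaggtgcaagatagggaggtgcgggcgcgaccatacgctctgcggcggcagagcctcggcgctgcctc
Syp: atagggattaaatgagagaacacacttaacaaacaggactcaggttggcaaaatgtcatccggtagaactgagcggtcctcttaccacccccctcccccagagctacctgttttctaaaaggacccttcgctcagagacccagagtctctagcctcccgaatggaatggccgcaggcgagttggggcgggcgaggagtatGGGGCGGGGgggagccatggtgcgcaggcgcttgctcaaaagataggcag
Sv2a: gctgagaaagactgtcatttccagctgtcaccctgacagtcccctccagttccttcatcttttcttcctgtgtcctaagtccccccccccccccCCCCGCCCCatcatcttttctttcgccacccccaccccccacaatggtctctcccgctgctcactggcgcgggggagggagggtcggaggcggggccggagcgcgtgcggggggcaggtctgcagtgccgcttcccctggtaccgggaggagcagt
The Syn1 region holds the cAMP response element TGACGTCA, whose first letter lies 159 bases before the start, and the left arm of the RE1 element, CAGCACC, at 230 and 176 bases before it. The RE1 element is the site of the repressor REST, which keeps neuronal genes silent outside neurons. The Syp region holds a GC box, GGGGCGGGG, at 50 bases before the start, and the Sv2a region holds one on the opposite strand at 156 bases before it. The Egr element GCGGGGGCG is in none of the 3. Over all 32851 promoters of this length, 1.55% hold the cAMP response element, 5.73% the RE1 arm, 10.4% the GC box and 2.57% the Egr element. Among the 48 promoters of the members the counts are 1, 4, 11 and 3. GC box and Egr matches can share bases, and a match is a description of these letters only.

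Both arrays numbered 3 differed from the other 4. Over all probe sets tested, arrays of replicates 1 and 2 correlated at r = 0.987 to 0.995, a replicate 3 array with one of these at 0.867 to 0.916, and the 2 replicate 3 arrays at 0.973. The log2 difference between 3′ and 5′ control probe sets for Gapdh and Actb, which grows as RNA is degraded, averaged 2.20, 2.09 and 2.08 in FLX arrays 1, 2 and 3 and 2.33, 2.18 and 2.19 in VEH arrays 1, 2 and 3. It was lower in the FLX array of each pair of equal number. The brightest S100a10 probe set read 2222, 2037 and 349 in FLX arrays and 3111, 2248 and 643 in VEH arrays. The other probe sets of S100a10 lay below the minimum of 50 in all arrays, one at 41.9 to 44.5 in FLX and 34.0 to 49.4 in VEH arrays and the other at 7.36 to 8.22 in FLX and 4.98 to 8.03 in VEH arrays. Where the probe sets lie relative to the deletion is not known here, and the brightest is of a type that can match other transcripts, so none of them checks the knockout. Fewer cells of a type and less RNA per cell cannot be told apart in such bulk samples.

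No member passed the test between fluoxetine and vehicle, and most members had slightly higher levels in the fluoxetine group. The test was limma on log2 levels, with p adjusted by Benjamini-Hochberg over 22200 probe sets. In it 0 of the 40 members (background 0% of probe sets) had an adjusted p under 0.05, and the smallest adjusted p of a member was 0.9998. At an unadjusted p under 0.05 the count was also 0 of 40, where 83 probe sets (0.374%) passed; by gene, 0.172% passed and were higher and 0.131% passed and were lower. For 35 of the 40 members (87.5%) the log2 difference, FLX minus VEH, was above 0, against 58.1% of all 12213 genes. The median difference was 0.26 over the members and 0.05 over all genes. For no member (0 of 40) did the FLX arrays all lie above the VEH arrays, a pattern shown by 2.61% of genes, nor all below (1.65%). The median of the members was 0.12 without the FLX replicate 3 array, 0.17 without VEH replicate 1 and 0.16 without VEH replicate 3. Over all probe sets tested the median in these fits was 0.014, 0.061 and 0.017.

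**Figure D1:**
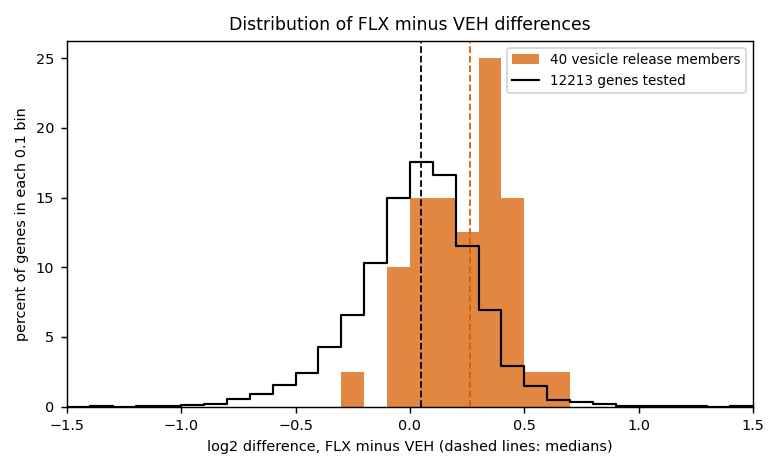
Percent of genes (vertical axis) in bins of the log2 difference FLX minus VEH (horizontal axis), for the 40 vesicle release members (filled bars) and all 12213 genes tested (line). The dashed lines mark the medians, 0.26 for the members and 0.05 for all genes; the members lie between -0.22 and 0.62.

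Compared within equal replicate numbers, 24 of the 40 members (60%) were higher in the FLX array in all 3 pairs, where the background over all genes was 20.2%. None (0) was lower in all 3, against 13.6% of genes. These counts rest on matching equal numbers, which is uncertain for replicates 1 and 2, as described further on. The pairs did not contribute alike. In pair 1, 39 of 40 members were higher in FLX (51.2% of genes), with a median of 0.42. In pair 2 it was 35 of 40 (47.9% of genes), with a median of 0.09. In pair 3 it was 28 of 40 (61.5% of genes), with a median of 0.30. All genes had medians of 0.01, -0.01 and 0.15 in the same pairs. With the replicate number as a block, again 0 members passed (0% of probe sets), with a smallest adjusted p of 0.623. There 10 members (25%) had an unadjusted p under 0.05, against 7.95% of probe sets. All 10 were higher, as were 3.59% of genes, and 0 were lower, as were 4% of genes. The 10 were Syn1, Syn3, Syt5, Sv2b, Syngr3, Snap91, Amph, Slc17a6, Nrxn2 and Nrxn3. The count was 0 of 40 members without pair 1, where 1510 of 22288 probe sets had an unadjusted p under 0.05. It was 5 without pair 2 (2041 of 22287 probe sets) and 6 without pair 3 (1970 of 21994 probe sets). None of these 10 is called changed.

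**Figure D2:**
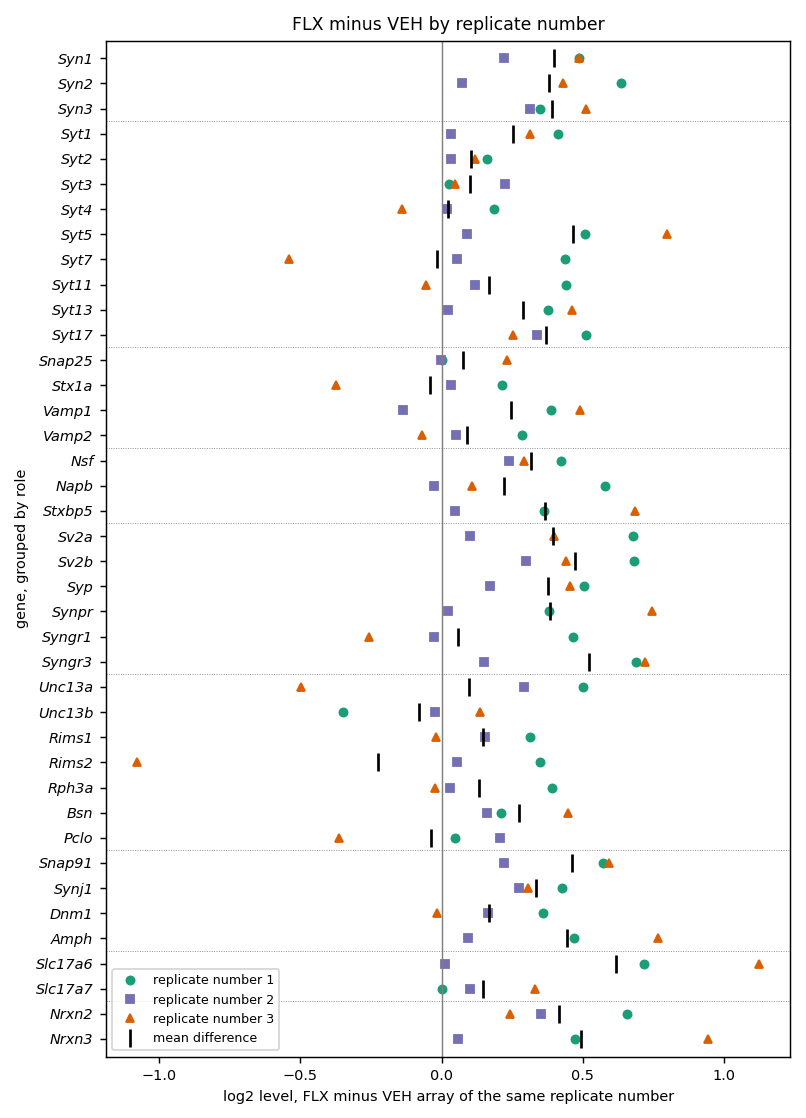
Log2 difference, FLX minus VEH (horizontal axis), for each of the 40 members (vertical axis, grouped by role) in each pair of arrays with the same replicate number (symbols) and on average (bar). Pair 1 lies right of 0 for 39 members, pair 2 lies close to 0, and pair 3 spreads from -1.08 for Rims2 to 1.12 for Slc17a6.

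The synapsins, phosphoproteins that tether vesicles to actin and to each other, had differences of 0.38 to 0.40 and were higher in FLX in all 3 pairs. Syn1 read 3808, 3605 and 7220 in FLX arrays (in the order of their numbers, here and below), against 2721, 3091 and 5152 in VEH arrays. The FLX array of each number was the higher, but FLX replicates 1 and 2 lay below VEH replicate 3, so the groups overlapped. Its log2 difference was 0.40 (SE 0.38, n = 3 per group, limma adjusted p = 0.9998). Syn3 read 421, 471 and 1483 in FLX arrays, against 331, 380 and 1042 in VEH arrays, a log2 difference of 0.39 (SE 0.65). Replicate 3 held the highest level in both groups. The 6 probe sets of Syn2 all had positive differences, from 0.35 to 0.92, and the brightest had 0.38 (SE 0.35).

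The synaptotagmins are vesicle and membrane proteins with paired C2 domains. Syt1 is the main sensor for fast release in forebrain neurons, Syt2 serves the same step chiefly in hindbrain and in some interneurons, and Syt7 supports slower, asynchronous release. Of 9 measured members, 8 had positive differences, with a median of 0.17. Syt1 averaged 11595 ± 4400 in FLX and 9900 ± 4360 in VEH arrays (SD, n = 3 each), with a log2 difference of 0.25 (SE 0.48). Syt2 ranged from 157 to 193 in FLX arrays and from 141 to 178 in VEH arrays. Syt5 had the largest difference of the family, 0.46 (SE 0.50), and the other positive ones ran from 0.02 for Syt4 to 0.37 for Syt17. Syt7 read 3790, 3306 and 2953 in FLX arrays and 2804, 3183 and 4291 in VEH arrays, a log2 difference of -0.02 (SE 0.24). It was higher in FLX in pairs 1 and 2 and lower in pair 3, and its difference turned to 0.16 without VEH replicate 3. Of the other Syt7 probe sets past the minimum, the brighter had -0.13 and the dimmer 0.34. Syt6 lay at 15.7 to 18.4 in FLX arrays and 14.2 to 48.1 in VEH arrays, all below the minimum of 50.

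The SNARE proteins, which carry out fusion, had the lowest median difference of the role groups, 0.08 over 4 genes. Snap25, the plasma membrane SNARE with a pair of helices in the complex, read 47740, 47353 and 50610 in FLX arrays and 47686, 47483 and 43142 in VEH arrays. Replicates 1 and 2 of both groups were nearly equal, and the log2 difference was 0.08 (SE 0.17), or 0.029 without VEH replicate 3. Such bright probe sets lie toward the top of the arrays' range of 1.60 to 76587. Stx1a, syntaxin 1A, read 21084, 18701 and 20460 in FLX arrays and 18169, 18273 and 26500 in VEH arrays, a difference of -0.04 (SE 0.23). VEH replicate 3 held its highest level, and the difference was 0.14 without that array. Of the vesicle SNAREs, Vamp2 averaged 13417 ± 1327 in FLX and 12619 ± 1263 in VEH arrays and Vamp1 averaged 2619 ± 954 in FLX and 2145 ± 428 in VEH arrays (SD, n = 3 each). For Snap25, Stx1a and Vamp2 the second probe set had the opposite sign, at -0.15, 0.14 and -0.26.

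Genes that take SNARE complexes apart or hold them in check had differences of 0.22 to 0.37. Nsf, the disassembly ATPase, read 20674, 20206 and 29731 in FLX arrays and 15435, 17119 and 24313 in VEH arrays. Every FLX array was above the VEH array of its number, and the difference was 0.32 (SE 0.27), or 0.14 without FLX replicate 3 and 0.51 without VEH replicate 3. Napb, the neuronal adaptor that loads Nsf onto SNAREs, had 0.22 (SE 0.40) and all 5 of its probe sets were positive. Stxbp5, tomosyn, which forms SNARE complexes that cannot fuse, had 0.37 (SE 0.50), with 3 positive probe sets.

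Proteins that span the vesicle membrane had positive differences for 6 of 6 measured genes, with a median of 0.39. Synpr, synaptoporin, a relative of synaptophysin, had the next smallest p-value of the list after Snap91 (limma adjusted p = 0.9998). It read 2211, 2453 and 2474 in FLX arrays and 1698, 2415 and 1477 in VEH arrays. VEH replicates 1 and 3 were low while VEH replicate 2 lay within the FLX range. Its log2 difference was 0.38 (SE 0.24), or 0.23 without VEH replicate 3 and 0.59 without VEH replicate 2. Syp, synaptophysin, the abundant membrane protein of vesicles, read 7010, 7081 and 2588 in FLX arrays and 4944, 6292 and 1889 in VEH arrays. Replicate 3 was the low array of both groups, and the difference of 0.38 (SE 0.60) turned to -0.14 without VEH replicate 3. That fit keeps the low FLX replicate 3 array, and without both replicate 3 arrays the difference was 0.34. The SV2 glycoproteins, which act in priming and in the recycling of synaptotagmin, had 0.39 (SE 0.49) for Sv2a and 0.47 (SE 0.43) for Sv2b, and Sv2c lay at 6.80 to 7.51 over all arrays. Of the synaptogyrins, Syngr3 had 0.52 (SE 0.48) and Syngr1 0.06 (SE 0.32).

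Of the active zone and priming genes, 4 of 7 had positive differences, with a median of 0.10. In FLX 6 of the 7 were higher in pair 1 (51.2% of genes) and 6 in pair 2 (47.9%). In pair 3 it was 2 of the 7 (61.5% of genes). Of the 5 that were lower in FLX in pair 3, Rims1 and Rph3a lay near 0, each at -0.02. Rims2, a scaffold that recruits calcium channels and vesicles, read 3382, 2565 and 4502 in FLX arrays and 2656, 2468 and 9502 in VEH arrays. The VEH replicate 3 array was far above all others. The log2 difference was -0.22 (SE 0.57), and it was 0.41 without that array. The next brightest of its 4 probe sets past the minimum had 0.36 (SE 0.29), and the others had 0.10 and -0.17. Rims1 had 0.15 (SE 0.28), and its other probe set had -0.26 (SE 0.44). Unc13b, a Munc13 priming factor, read 608, 636 and 695 in FLX arrays and 774, 646 and 633 in VEH arrays, a difference of -0.08 (SE 0.19). VEH replicate 1 was the high array, and without it the difference was 0.01. Unc13a, the main Munc13 of cortical synapses, read 183, 202 and 436 in FLX arrays and 129, 165 and 617 in VEH arrays. FLX was higher in pairs 1 and 2 and lower in pair 3, and the difference was 0.10 (SE 0.67), or -0.34 without VEH replicate 1. The giant scaffolds Pclo and Bsn had -0.04 (SE 0.23) and 0.27 (SE 0.32). Pclo read 578, 764 and 518 in FLX arrays and 560, 662 and 665 in VEH arrays, lower in FLX in pair 3 only. Rph3a, rabphilin, had 0.13 (SE 0.31).

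Genes of vesicle endocytosis had 3 of the 5 smallest p-values among members higher in FLX. Snap91, the clathrin adaptor AP180 that sets vesicle size, had the smallest p-value of all members (limma adjusted p = 0.9998). It read 13423, 12425 and 19461 in FLX arrays and 9029, 10672 and 12899 in VEH arrays. The FLX array was higher in each pair, and the groups overlapped because VEH replicate 3 exceeded FLX replicate 2. Its means were 15103 ± 3807 in FLX and 10866 ± 1942 in VEH arrays (SD, n = 3 each), and its log2 difference was 0.46 (SE 0.26), which lay between 0.26 and 0.59 when single arrays were left out. Synj1, the phosphatase that uncoats vesicles, read 17234, 16066 and 24079 in FLX arrays and 12829, 13306 and 19488 in VEH arrays. It too was higher in FLX in each pair, by 0.43, 0.27 and 0.31, and the mean difference was 0.33 (SE 0.27). It was 0.16 without FLX replicate 3 and 0.53 without VEH replicate 3. Amph, amphiphysin, which brings dynamin to the vesicle neck, read 5728, 5461 and 11571 in FLX arrays and 4138, 5121 and 6811 in VEH arrays. FLX replicate 3 was well above the rest, and the difference of 0.44 (SE 0.37) was 0.09 without it. Dnm1, the fission GTPase dynamin 1, read 20582, 19408 and 25933 in FLX arrays and 16040, 17307 and 26256 in VEH arrays, a difference of 0.17 (SE 0.27). It was 0.032 without VEH replicate 1 and 0.39 without VEH replicate 3.

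**Figure D3:**
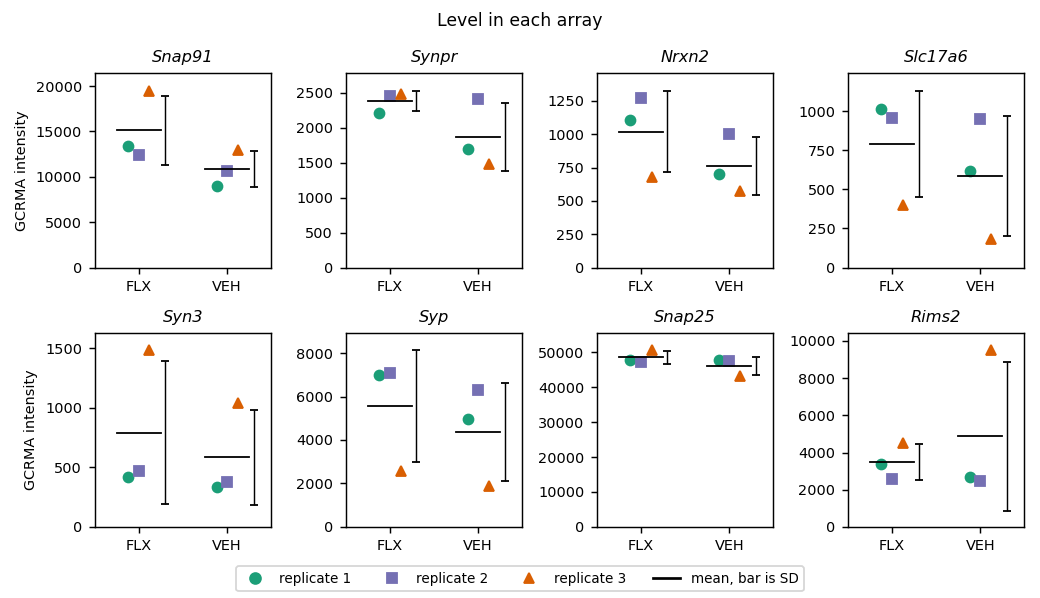
Deposited level (vertical axis, GCRMA intensity from 0) in FLX and VEH arrays for 8 members, with symbols for the replicate number, a line for the mean and a bar for its SD (n = 3). Snap91, Synpr and Nrxn2 lie higher in FLX within each replicate number; replicate 3 is the high array for Syn3 and the low one for Slc17a6 and Syp; Snap25 hardly differs; Rims2 has a single high VEH array at 9502.

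Among the vesicular glutamate transporters, which define excitatory terminals, Slc17a6 (VGLUT2) had the largest difference of all members. It read 1016, 955 and 401 in FLX arrays and 618, 948 and 184 in VEH arrays. Replicate 2 was alike in both groups and replicate 3 was low in both, so the difference of 0.62 had an SE of 0.69. It turned to -0.07 without VEH replicate 3 alone, and was 0.36 for Slc17a6 without both replicate 3 arrays. Its other probe set had 0.70. Slc17a7 (VGLUT1), the usual transporter of cortical projection neurons, averaged 189 ± 48.3 in FLX and 173 ± 54.1 in VEH arrays. The neurexins, presynaptic adhesion molecules that align release sites with the partner cell, had differences of 0.42 (SE 0.34) for Nrxn2 and 0.49 (SE 0.45) for Nrxn3. The other probe sets of Nrxn3 past the minimum had 0.26, 0.21 and -0.08. Nrxn2 read 1104, 1274 and 681 in FLX arrays and 702, 998 and 576 in VEH arrays, higher in FLX in each pair, and its difference was 0.23 without FLX replicate 2 and 0.68 without FLX replicate 3.

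Replicate 3 differed from replicates 1 and 2 in many members, in opposite directions by gene. The shares in each direction were near those of all genes. Relative to the mean of replicates 1 and 2, replicate 3 was higher in both groups for 19 of 40 members (47.5%) and lower in both for 15 (37.5%), against backgrounds of 40.5% and 41.4% of all genes. The 6 others, with unlike signs in the groups, were Syt7, Snap25, Synpr, Unc13b, Bsn and Pclo. A change of at least 2-fold in both groups was seen upward for 3 members (7.5%, background 5.11%), namely Syn3, Syt17 and Unc13a. It was seen downward for 5 (12.5%, background 16.6%), namely Syt1, Syt4, Sv2a, Syp and Slc17a6. The 19 higher members comprised all synapsins, all endocytosis genes, Nsf, Napb and Stxbp5, 3 SNAREs, 4 active zone genes, Syt2 and Syt17. The 15 lower members comprised 5 of 6 vesicle membrane genes, 6 of 9 synaptotagmins, both measured glutamate transporters and both neurexins. Replicate numbers carry no stated meaning, so these are descriptions with no test.

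**Figure D4:**
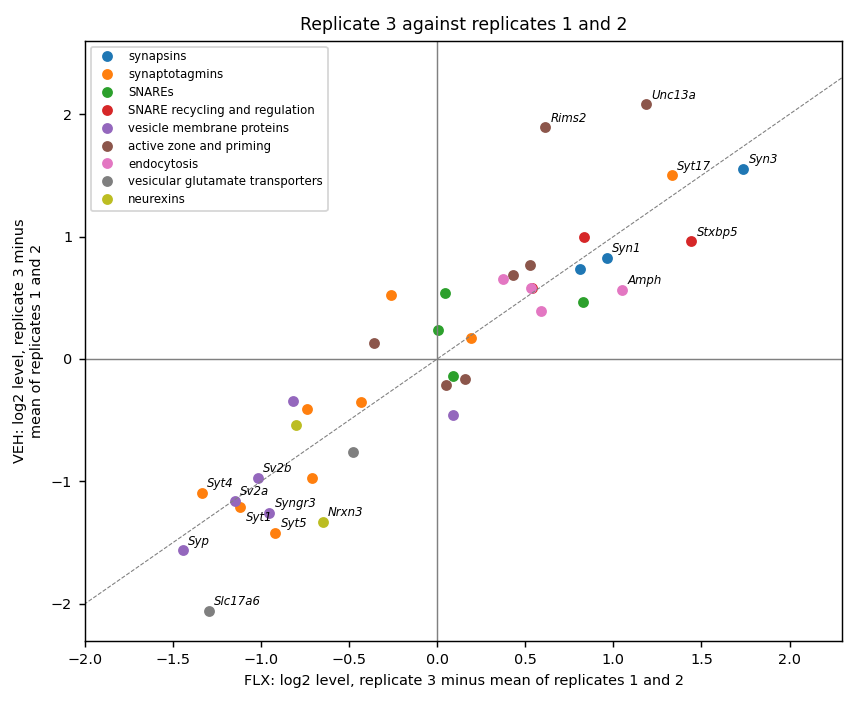
Log2 level in replicate 3 minus the mean of replicates 1 and 2, in FLX (horizontal axis) and VEH arrays (vertical axis), for 40 members coloured by role; the dashed line marks equal shifts. Synapsins and endocytosis genes lie at the upper right, 5 of 6 vesicle membrane genes (not Synpr), transporters and neurexins at the lower left, and Slc17a6 and Unc13a reach -2.06 and 2.08 in VEH arrays.

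In values, Syn3 was 3.33-fold higher in FLX replicate 3 and 2.94-fold higher in VEH replicate 3 than in replicates 1 and 2 of the same group. Syt17, an unusual synaptotagmin that lacks a transmembrane segment, read 2152, 1828 and 4991 in FLX arrays and 1509, 1447 and 4186 in VEH arrays. In the other direction Syp in replicate 3 was at 0.367 of its level in replicates 1 and 2 in FLX and 0.339 in VEH arrays, and Slc17a6 at 0.407 and 0.240. The median shift of the vesicle membrane genes was -0.99 in FLX and -1.06 in VEH arrays, against 0.96 and 0.83 for the synapsins. The median treatment difference was 0.25 over the 19 members that were higher in replicate 3 and 0.38 over the 15 that were lower. FLX was above VEH in all 3 pairs for 10 of the 19 and 12 of the 15, and whether these sets differ was not tested.

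**Figure D5:**
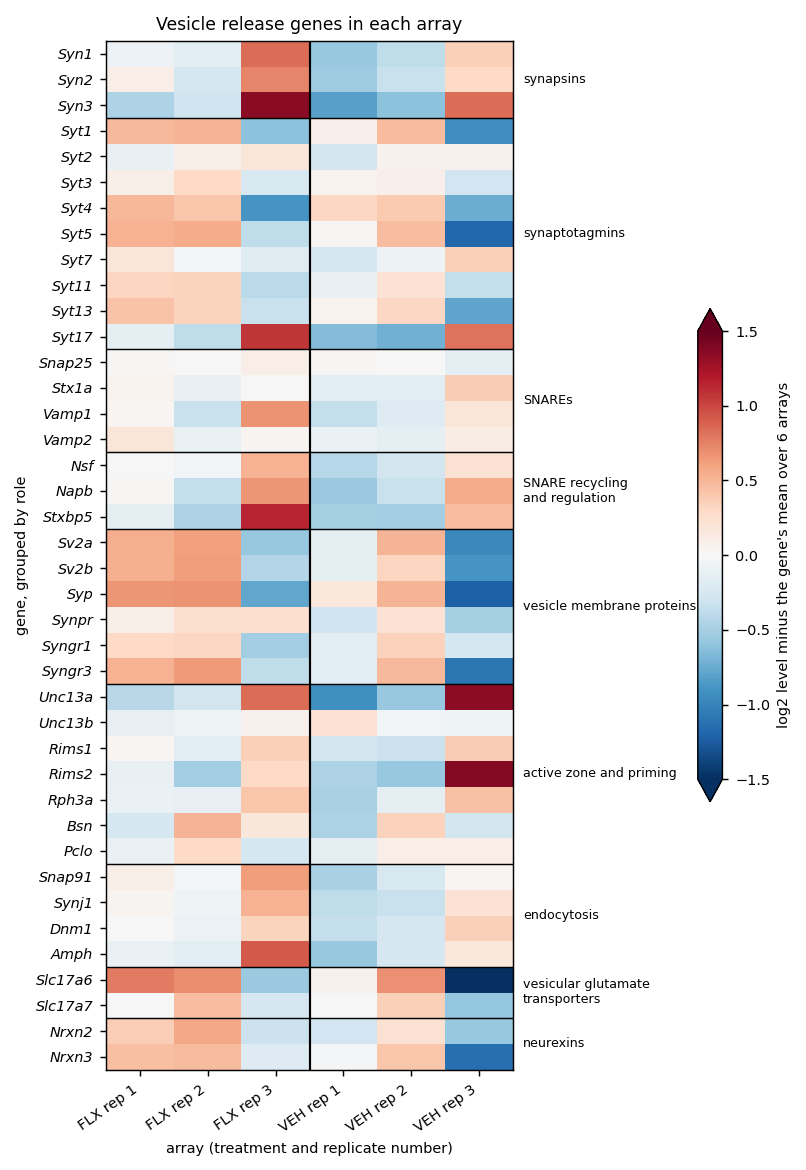
Log2 level of each member (vertical axis, by role) in each array (horizontal axis) relative to the gene's mean over the 6 arrays, from blue (lower) to red (higher). Replicate 3 of both groups turns red for synapsins and endocytosis genes and blue for 5 of 6 vesicle membrane genes (not Synpr), and VEH replicate 1 is paler or bluer than FLX replicate 1 in nearly all members.

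Most members were measured by more than 1 probe set. Of 82 probe sets of members past the minimum, 71 had a positive difference, where 58.1% of all genes did by their brightest probe set. Of the 42 that were not the brightest of their gene, 34 shared the sign of the brightest for treatment and 37 for replicate 3. In 17 of 24 genes with several probe sets all shared the treatment sign. Probe sets of the same gene are repeat readings of the same arrays and add no samples.

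The wider pathway was read from lists of genes that are not members. Of 76 such non-member genes, 70 had a probe set annotated to them alone and 67 reached the minimum, and 0 passed the limma test with or without the block (background 0%). Of the 67, 44 (65.7%) had a positive difference, against 58.1% of all genes, and the median was 0.07, against 0.05 over all genes. In all 3 pairs 16 (23.9%) were higher in FLX, against 20.2% of all genes. Among fusion and priming genes, Syt14 had 0.41 (SE 0.33) and Sncg 0.41 (SE 0.37), and Stxbp2 had -0.11 and Vamp3 -0.27. Among active zone genes, Lin7a had 0.24 and Cacnb4 0.15, and Rims3 had -0.35 and Cacna1a -0.30. Among endocytosis genes, Eps15, a clathrin coat adaptor, had 0.29 (SE 0.21) and Dnm3, another dynamin, 0.45 (SE 0.34), and Sh3gl1 had -0.17 and Clta -0.15. Slc32a1, the vesicular transporter for GABA and glycine, had 0.50 (SE 0.29), reading 884, 806 and 836 in FLX arrays and 536, 878 and 450 in VEH arrays, and Scamp5 had 0.26, while Syngr2 had -0.62 (SE 1.02).

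Markers of cell types that the purified RNA could hold were read beside the members. Pan-neuronal markers (10 of 10 past the minimum) had a median difference of 0.16 with 6 higher in FLX in all 3 pairs, and their summed level ran from 81714 to 137517 in FLX and from 73475 to 133956 in VEH arrays. Layer 5 pyramidal markers (7 of 9) had a median of 0.24, interneuron markers (10 of 12) 0.24, striatal markers (5 of 8) 0.20 and thalamic and hippocampal markers (8 of 8) 0.13. The layer 5 list includes Rorb and Foxp2 and so was not limited to genes of that layer. Only 7 of its genes had a probe set of their own. Astrocyte markers (11 of 11) had a median of 0.26, the same as the members to 2 decimals, with 5 higher in FLX in all 3 pairs and sums of 40925 to 58193 in FLX and 41855 to 50196 in VEH arrays. Among them Gfap had 1.496 (SE 0.81), Aqp4 1.12 (SE 0.53), Gjb6 -0.28 (SE 1.49) and Gja1 -0.04 (SE 0.87). Oligodendrocyte markers (10 of 11) had 0.14, microglia markers (9 of 10) 0.08 and endothelial markers (5 of 9) -0.0045. Leptomeningeal markers (11 of 11) had -0.29, with sums of 28834 to 113436 in FLX and 44944 to 112232 in VEH arrays, and pericyte and smooth muscle markers (4 of 7) had -0.68, with sums of 1996 to 5035 and 2062 to 8350. In pair 1 the medians were 0.33 for pan-neuronal, 0.41 for layer 5, 0.49 for interneuron and 0.34 for striatal markers. Thalamic and hippocampal markers had -0.04, astrocyte 0.35, oligodendrocyte 0.12, microglia -0.37 and endothelial -0.43 in that pair. Leptomeningeal markers had -0.58 there, and pericyte and smooth muscle markers -1.05. In replicate 3 all 10 pan-neuronal markers were higher in both groups (medians 0.79 in FLX and 0.85 in VEH arrays) and all 11 leptomeningeal markers were lower (-3.63 and -3.41), while oligodendrocyte markers had medians of 1.43 and 0.87 and microglia markers -0.98 and -1.44. Astrocyte markers had 0.25 in FLX and -0.59 in VEH arrays. The part of these shifts, and of the RNA integrity above, in the members' values was not tested.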

How the data were processed

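Ribosome-bound RNA of 3 FLX and 3 VEH cortex samples was amplified from 15 ng in 2 cycles for 1-colour Affymetrix arrays, per the labels' protocols. The authors deposited linear intensities per probe set, made with GCRMA per the submitters' processing notes. Its version is not stated there. GCRMA corrects background by probe sequence, equalises the distributions of the arrays and summarises probes, so a shift shared by most genes is largely removed. Some of it can remain: array medians ran from 38.5 in FLX replicate 3 to 41.9 in VEH replicate 2. That the scale is linear follows from the range of the values. The submitters advise a minimum of 50 and a list of neuronal probe sets from their paper, and the list was not used here. Read depth does not apply to arrays: their number limits the precision, and 21158 to 21682 probe sets per array read 50 or more.

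Of 45037 probe sets other than 64 controls, 34945 carry 1 gene symbol in the platform annotation. The 22200 with a mean of at least 50 in 1 group or both were tested with limma 3.58.1 in R 4.3.3 on the log2 of the deposited intensities, without a pseudocount, with a term for treatment alone, two-sided, adjusted by Benjamini-Hochberg over all of them. A log2 difference is FLX minus VEH, its SE is moderated, and an error after a mean is an SD over 3 arrays. In this fit a p-value sets the difference between the groups against the spread between arrays within a group. In the fit with the replicate block it is set against the spread left after replicate number. The script was tested on simulated data. Figures were drawn with matplotlib 3.10.9.

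The arrays share replicate numbers. Deviations from the group means correlated at r = 0.70, 0.84 and 0.87 between equal numbers, all above the limit of 0.1, so the numbers were treated as pairs in a second fit with a replicate block. Unlike numbers 1 and 2 correlated at 0.64 and 0.76 too, so the pairing rests mainly on replicate 3. VEH replicate 1 correlated more with FLX replicate 2 (0.76) than with FLX replicate 1 (0.70). The matching of numbers 1 and 2 is thus uncertain, and the counts by pair depend on it.

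Members and lists were chosen with earlier results of these data known. Values per array are given for members with the 5 smallest p in each direction, the 5 brightest, those with the 5 largest replicate 3 shifts and, beyond that rule and chosen after their values were seen, Syn1. Pathway and astrocyte genes named are the 2 with the smallest p per direction and list.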

Additional observations from a re-analysis of the deposited data

How the results depend on the processing

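No probe set passed (0) in the fit of all arrays, with or without the replicate block, or when the processing was varied by leaving out single arrays (0 to 0) or both replicate 3 arrays, other minimums, a pseudocount, quantile normalization, centring, an intensity trend and the mean of a gene's probe sets. The exceptions were added after seeing the data: with the block, 1 probe set passed without pair 1 and 86 without pair 2, and 0 without pair 3. The block moved no call of a member. The members' median difference stayed above 0, at 0.12 to 0.25 when single arrays were left out, 0.23 to 0.27 under the other settings just listed, and 0.23, 0.36 and 0.25 with the block without pairs 1, 2 and 3. The number of members above 0 was 30 to 35 when single arrays were left out. Over all probe sets tested, the median difference in these fits ran from 0.014 without FLX replicate 3 to 0.061 without VEH replicate 1. It was -0.0051 without both replicate 3 arrays. Over 18 named members and 19 alternatives, 308 differences kept their sign and 34 turned it. Some of these could not turn: the block over all arrays, the intensity trend and the other minimums leave each difference as it was. The block without pair 3 repeats the differences of the fit without both replicate 3 arrays. None of the 18 named members passed the test, and the cause of the turned signs was not tested. Without both replicate 3 arrays, and likewise with the block without pair 3, Rims2 had 0.20, Stx1a 0.12, Pclo 0.13, Syt7 0.24 and Snap25 -0.0012. With the block without pair 1, Unc13b had 0.056 and Unc13a -0.10. As means of all probe sets of the gene, Rims2 had 0.014, Stx1a 0.049, Syt7 0.062 and Snap25 -0.035, and from its other probe set Stx1a had 0.14. When single arrays were left out, values ran from -0.13 to 0.013 for Unc13b, -0.57 to 0.41 for Rims2, -0.13 to 0.14 for Stx1a, -0.20 to 0.084 for Pclo, -0.15 to 0.16 for Syt7, -0.068 to 1.11 for Slc17a6, -0.19 to 0.91 for Syn3, -0.34 to 0.79 for Unc13a, -0.14 to 0.86 for Syp and -0.076 to 0.87 for Syt17. A fit without 1 replicate 3 array keeps the replicate 3 array of the other group, which leaves the groups unbalanced in replicate number. Without both, the difference was 0.36 for Slc17a6, 0.33 for Syn3, 0.40 for Unc13a, 0.34 for Syp and 0.42 for Syt17. With 3 arrays per group, their number limits the precision.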
